A study of Rattus norvegicus with 28 samples.

Results

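The genes described here are the NF-kB subunits and the feedback inhibitors of the NF-kB pathway, measured in the right lung, upper lobe, of rats of the Sprague Dawley strain. Members were taken by name: Nfkbia, Nfkbiz, Tnfaip3, Bcl3, Nfkb1, Nfkb2, Rel, Relb, Birc3 and Zc3h12a. The names were chosen with earlier results of these data known. Of these 10 names, 8 were found among the 17002 genes of the table, and the other 2, Tnfaip3 and Relb, are not analysed here. RNA sequencing of poly(A) RNA gave 28 libraries in 8 groups. A lung injury came before ventilation in 4 groups: acute_noisy (4 libraries) and acute_VCV (3) after acute injury, chronic_noisy (3) and chronic_VCV (3) after chronic injury. Both healthy_noisy (3) and healthy_VCV (4) were ventilated with no earlier injury. All ventilation was volume-controlled, with tidal volumes that varied in the groups named noisy and were constant in those named VCV. The control_chronic group (5) was sampled, unventilated, 14 days after chronic injury was induced, and control_blank (3) was neither injured nor ventilated. How each injury was made, the length of ventilation and the age of the rats are not given in the sources used here. For chronic_noisy and chronic_VCV the time since the chronic injury is not given either. No unventilated group with acute injury is among the samples, so acute injury and ventilation are set against control_blank together.

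NF-kB is a family of transcription factors that sits in the cytoplasm bound to inhibitor proteins until a signal from a cytokine receptor, a pattern-recognition receptor or cell stretch leads to the loss of the inhibitor. The freed dimers enter the nucleus and drive genes of inflammation, and among those genes are the inhibitors and subunits themselves, so that a burst of activity is followed by feedback. In the lung the pathway is best known for its part in inflammation after infection, aspiration and overstretch of the alveoli by a ventilator. Nfkb1 and Nfkb2 encode precursors that are cut to DNA-binding subunits, and Rel encodes the subunit c-Rel. Nfkbia encodes the classical cytoplasmic inhibitor, while Nfkbiz and Bcl3 encode related proteins that act in the nucleus. Birc3 encodes a ubiquitin ligase of tumour necrosis factor receptor signalling, and Zc3h12a encodes a ribonuclease that degrades messenger RNAs of inflammatory genes.

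NF-kB dimers bind short kB sequences, and stretches of the members' promoters are shown for the letters they share. RefSeq promoters (GRCr8, 250 bases before to 50 after the gene start) were matched by symbol for 7 of the 8 genes, all but Birc3. The kB consensus, searched on both strands, was in 6 of these 7 windows, against 7.51% of 33469 rat promoters of the same length. The members were named for their place in a pathway that feeds back on its own genes, so this share describes them and tests nothing. Zc3h12a had no match in its window. Capitals mark the matches, and each stretch is written 5′ to 3′ on the strand of the gene. In Nfkbia the match starts 31 bases before the gene start, in Nfkbiz 13, in Bcl3 38 and in Nfkb2 20, while that of Nfkb1 starts 3 bases after it. In Rel the capitals hold overlapping matches from 82 bases before the start, and further matches near 219 bases before it are not shown. A match is a string of letters in the promoter and was not measured as a bound site.
Nfkbia, chr6:78597073-78597132, minus strand: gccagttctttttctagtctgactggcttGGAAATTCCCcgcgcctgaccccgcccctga
Nfkbiz, chr11:58251661-58251720, plus strand: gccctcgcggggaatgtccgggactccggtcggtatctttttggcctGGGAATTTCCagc
Bcl3, chr1:88613556-88613615, minus strand: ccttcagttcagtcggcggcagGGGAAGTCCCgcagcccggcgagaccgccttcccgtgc
Nfkb1, chr2:226805445-226805474, minus strand: tctctcgacgtcagtGGGAATTTCCagcca
Nfkb2, chr1:255108314-255108373, plus strand: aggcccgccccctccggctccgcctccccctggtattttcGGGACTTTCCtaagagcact
Rel, chr14:101921989-101922048, minus strand: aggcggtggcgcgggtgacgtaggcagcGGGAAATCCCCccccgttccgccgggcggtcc

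Values below are the deposited values, read counts divided by 1 factor per library, so they compare libraries within a gene and not one gene with another. Libraries held 6024093 to 31923838 reads, with the lowest depths in control_chronic. Of the listed markers, 6 of 6 of alveolar type 1, 6 of 8 of type 2, 4 of 6 of club and 8 of 10 of endothelial cells were found. None of those found was at 0 throughout a group. Changes are log2 changes ± SE from 1 limma fit of log2(value + 1) over all 28 libraries. A gene is called when its Benjamini-Hochberg adjusted p over the 14908 genes tested is under 0.05, and all 8 members passed the filter on low values. Folds on this scale understate changes of low genes, the more so the nearer their values are to 0. The labels do not say that each library is a separate animal, so p-values measure the spread between these libraries, which may be partly technical. In whole tissue, more cells of a type and more RNA per cell cannot be told apart. Titles carry a leading number whose first digits (12, 14, 15 or 18) coincide with group in most contrasts. Its meaning is not given and it is called the number series here. Acute_VCV and control_blank are both of series 12, while control_chronic alone is of series 18, so for comparisons across series with no shared group the series and the group cannot be told apart.

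Acute injury followed by ventilation came with higher levels of every member under variable tidal volumes and of most members under constant ones. In acute_noisy against control_blank, 8 of 8 members rose, where 31.3% of all genes did. In acute_VCV against control_blank, 6 of 8 rose, where 20.6% of all genes did, and Nfkbia and Rel were not called. Bcl3, Birc3 and Zc3h12a had the largest log2 changes of the 8 in both comparisons. The members' ranges lay wholly above those of control_blank for 7 of 8 in acute_noisy (24.3% of all genes) and for 7 of 8 in acute_VCV (23.1%), with Nfkbia the exception in both. The median log2 change of the members was 1.77 in acute_noisy and 1.29 in acute_VCV, beside 0.03 and 0.07 over all genes. These comparisons share the 3 control_blank libraries. Acute_VCV and control_blank come from a single number series, and a fit of that series alone also called 6 members. Acute_noisy shares no number series with control_blank, so in that comparison series and group cannot be told apart. Set directly against acute_VCV, acute_noisy had 1 of 8 members called, Rel.

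**Figure D1:**
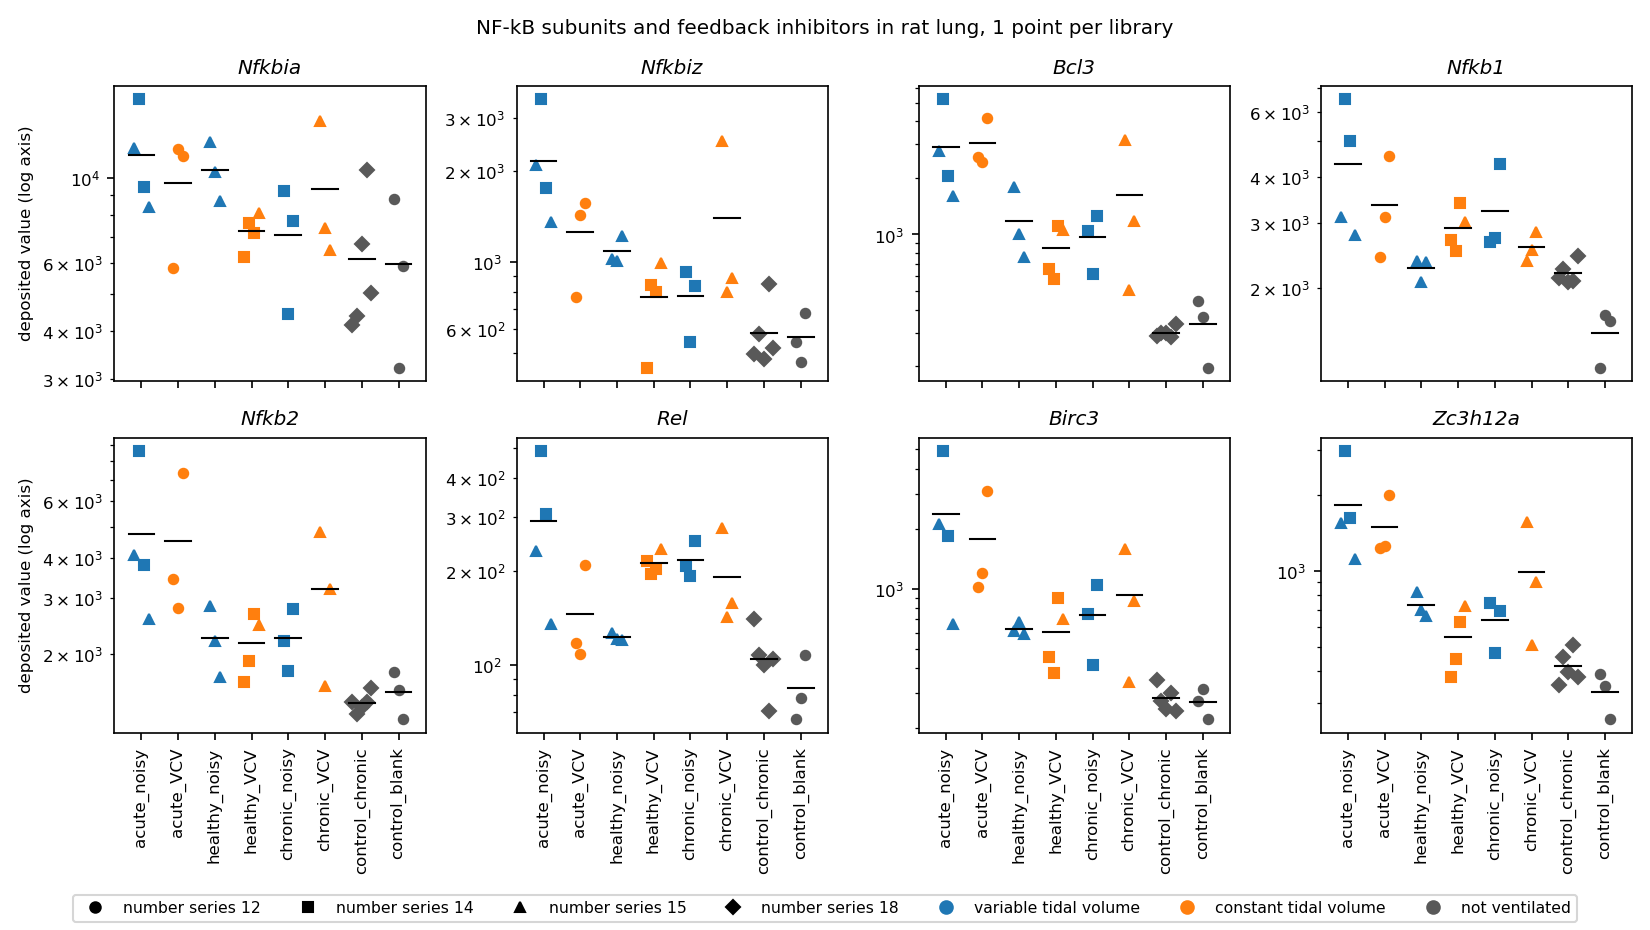
Deposited value (log axis) of each of the 8 members in every library, with 1 panel per gene, groups along the x axis, symbols for the number series, colours for the mode of ventilation and a bar at the group mean. Bcl3 lies between 1590.3 and 5193 in acute_noisy and between 2430.2 and 4153 in acute_VCV, above all control_blank libraries, while Nfkbia overlaps control_blank in both.

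Among the subunits, Nfkb1 had 3122, 6503, 5013 and 2778 in the acute_noisy libraries and 2425, 3114 and 4567 in acute_VCV, against 1215, 1687 and 1624 in control_blank. Every library of both injured groups was above the highest control. The log2 change was 1.46 ± 0.23 (limma, adjusted p = 1.93e-05) in acute_noisy and 1.12 ± 0.25 (adjusted p = 0.00114) in acute_VCV. Nfkb2 had 4071, 8609.8, 3792 and 2569 in acute_noisy and 3444, 2782 and 7342 in acute_VCV, against 1766, 1546 and 1253 in control_blank. Again no library overlapped, although 1 library in each injured group, 047 of acute_noisy and 049 of acute_VCV, stood far above the rest of its group. Its log2 changes were 1.51 ± 0.35 (limma, adjusted p = 0.000842) in acute_noisy and 1.45 ± 0.38 (adjusted p = 0.00405) in acute_VCV.

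Rel was set apart less clearly under constant tidal volumes. It had 232, 489, 305 and 136 in acute_noisy and 117.2, 108 and 209.8 in acute_VCV, against 66.5, 78 and 107 in control_blank. All libraries of both injured groups exceeded the controls, but 2 of the 3 in acute_VCV did so by little. The change was 1.66 ± 0.32 in acute_noisy (limma, adjusted p = 0.000122) and 0.75 ± 0.34 in acute_VCV, which missed the threshold (adjusted p = 0.0829).

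Among the inhibitors of the IkB family, Nfkbia varied most between control libraries. It had 11965, 15973, 9438 and 8411 in acute_noisy and 5815, 11903 and 11359 in acute_VCV, against 8787, 3207 and 5898 in control_blank. The control libraries span nearly the whole lower part of the range, so the groups overlap. Its change was 1.01 ± 0.35 (limma, adjusted p = 0.017) in acute_noisy and 0.75 ± 0.38 (adjusted p = 0.123) in acute_VCV. The acute_noisy call was lost without control_blank library 021 (log2 0.62, adjusted p = 0.161), without acute_noisy library 047 (0.84, adjusted p = 0.0613) and with the acute_noisy libraries of series 15 alone (0.87, adjusted p = 0.104). In acute_VCV it was gained without acute_VCV library 040 (1.08, adjusted p = 0.0366) or control_blank library 016 (1.09, adjusted p = 0.0443).

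Nfkbiz, the nuclear co-activator of late inflammatory genes such as Il6, had 2090.0, 3457, 1755 and 1360.5 in acute_noisy and 768, 1435 and 1576 in acute_VCV, against 545, 469 and 678 in control_blank. All injured libraries exceeded the controls, with acute_VCV library 040 only just above them. The change was 1.87 ± 0.35 (limma, adjusted p = 0.000118) in acute_noisy and 1.11 ± 0.38 (adjusted p = 0.0245) in acute_VCV. The acute_VCV call was lost when any 1 of 4 libraries was left out, acute_VCV 045 or 049 and control_blank 016 or 021, with adjusted p of 0.0904, 0.119, 0.0589 and 0.0837.

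Bcl3, which binds subunit homodimers in the nucleus, showed the widest separation. It had 2782, 5193, 2051 and 1590.3 in acute_noisy and 2565, 2430.2 and 4153 in acute_VCV, against 444, 364 and 197 in control_blank. The lowest injured library was more than 3 times the highest control. Its log2 changes were 3.04 ± 0.45 (limma, adjusted p = 9.58e-06) in acute_noisy and 3.22 ± 0.48 (adjusted p = 3.05e-05) in acute_VCV.

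Birc3 had 2117, 4900.2, 1840.5 and 666 in acute_noisy and 1019, 1192 and 3103 in acute_VCV, against 274, 312 and 220.5 in control_blank. No library overlapped, and acute_noisy library 053 was the injured library nearest to the controls. Its changes were 2.82 ± 0.51 (limma, adjusted p = 6.83e-05) in acute_noisy and 2.54 ± 0.54 (adjusted p = 0.000844) in acute_VCV. Zc3h12a had 1548, 2984, 1619 and 1112 in acute_noisy and 1232, 1255 and 2001 in acute_VCV, against 389.8, 348 and 257 in control_blank. The groups were again fully apart, with a narrower spread than for Birc3. The changes of Zc3h12a were 2.37 ± 0.32 (limma, adjusted p = 2.81e-06) in acute_noisy and 2.15 ± 0.34 (adjusted p = 4.57e-05) in acute_VCV.

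Markers of neutrophils moved with these members. The 11 neutrophil markers found, of 12 listed, summed to 23453 to 96543 in acute_noisy and 30377 to 118108 in acute_VCV, against 3601 to 3802 in control_blank, and 10 and 9 of them rose. No neutrophil marker was at 0 throughout a group. Macrophage markers (6 of 10 found) summed to 5305 to 10146 in acute_noisy and 5630.0 to 7576 in acute_VCV, against 4496 to 6545 in control_blank, and 4 and 3 of 6 rose. Markers of airway club cells (4 of 6 found) summed to 90933 to 239738 in acute_noisy and 186553 to 274313 in acute_VCV, against 502729 to 1322027 in control_blank, and 4 and 3 of them fell. Those of alveolar type 1 cells (6 of 6 found) summed to 51424 to 85780.0 in acute_noisy and 88359 to 103432 in acute_VCV, against 112754 to 131458 in control_blank, and 4 and 3 fell. Of all genes, 31.3% rose and 28.4% fell in acute_noisy, and 20.6% rose and 16.7% fell in acute_VCV. Cardiac muscle markers fell in 6 of 6 and 1 of 6, the latter near the share of all genes. The part of these cell types in the result was not tested.

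**Figure D2:**
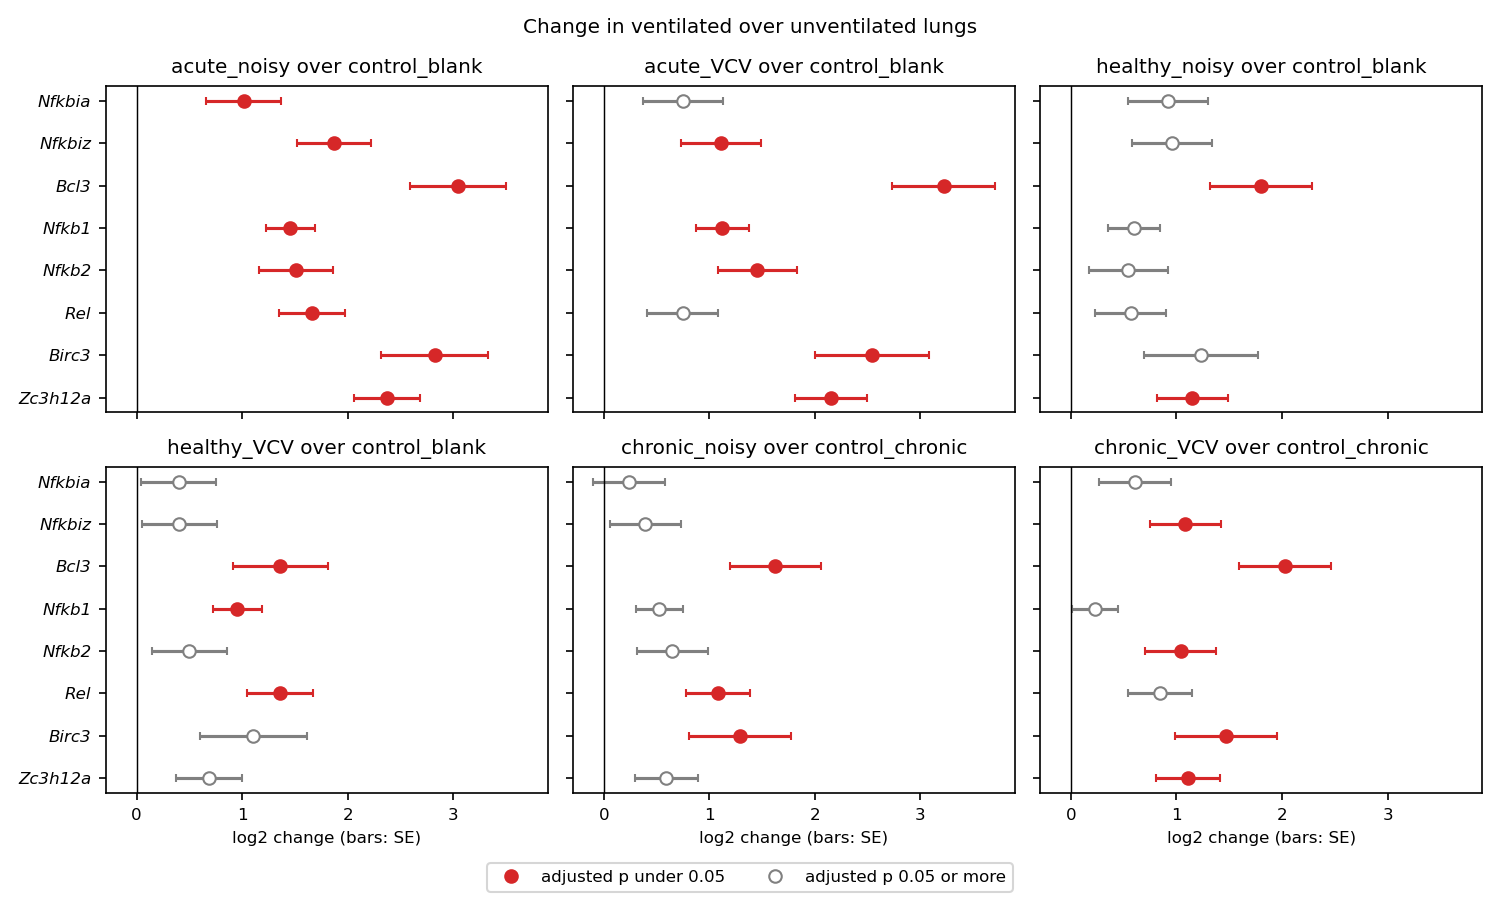
Log2 change of each member (x axis, bars are SE) in the 6 ventilated groups over the unventilated group named in the panel, with filled points for adjusted p under 0.05. All 8 points are filled for acute_noisy and 2 for healthy_noisy.

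Ventilation of uninjured lungs came with higher Bcl3 in both modes, and the other calls differed in name between modes. In healthy_noisy against control_blank, 2 of 8 members rose, Bcl3 and Zc3h12a, where 17.5% of all genes did. In healthy_VCV against control_blank, 3 of 8 rose, Bcl3, Nfkb1 and Rel, where 29.3% of all genes did. These shares are near those of all genes. Members lying wholly above control_blank numbered 6 in healthy_noisy (19.5% of all genes) and 4 in healthy_VCV (30.2%). Both comparisons use the same control_blank libraries as the acute ones. Neither healthy group shares a number series with control_blank, so series and group cannot be told apart.

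Bcl3 had 1774, 1001 and 763 in healthy_noisy and 655, 579.6, 1112 and 1051 in healthy_VCV, against the 197 to 444 of control_blank. All 7 ventilated libraries were above the controls. The change was 1.80 ± 0.48 (limma, adjusted p = 0.00758) in healthy_noisy and 1.36 ± 0.45 (adjusted p = 0.0133) in healthy_VCV. The healthy_noisy call was lost without its library 029 (1.46, adjusted p = 0.0567) and the healthy_VCV call without control_blank library 074 (1.02, adjusted p = 0.0859). Zc3h12a had 824, 701 and 663 in healthy_noisy and 380.2, 445, 628 and 722 in healthy_VCV, against 257 to 389.8 in control_blank. The healthy_noisy libraries were clear of the controls and 1 healthy_VCV library was not. The Zc3h12a change was 1.15 ± 0.34 (limma, adjusted p = 0.0126) in healthy_noisy, lost without library 029 (1.06, adjusted p = 0.056), and 0.69 ± 0.32 (adjusted p = 0.0661) in healthy_VCV.

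Rel and Nfkb1 did not overlap between any pair of these 3 groups. Rel had 127, 121 and 119.7 in healthy_noisy and 215, 196, 203 and 236 in healthy_VCV, against 66.5 to 107 in control_blank. Healthy_noisy lay between the other two groups. Rel's change was 0.57 ± 0.34 (limma, adjusted p = 0.2) in healthy_noisy and 1.36 ± 0.32 (adjusted p = 0.000885) in healthy_VCV. Nfkb1 had 2373, 2083.9 and 2352 in healthy_noisy and 2694, 2529, 3397 and 3031 in healthy_VCV, against 1215 to 1687 in control_blank, in the same order. Its change was 0.60 ± 0.25 (limma, adjusted p = 0.0653) in healthy_noisy and 0.95 ± 0.23 (adjusted p = 0.00132) in healthy_VCV.

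The remaining members were not called by limma in uninjured lungs in either mode. Birc3 had 613, 684 and 590.2 in healthy_noisy and 453, 378, 895 and 707 in healthy_VCV, all above the 220.5 to 312 of control_blank. Nfkbia had 12404, 10377 and 8696 in healthy_noisy and 6231, 7649, 7205 and 8076 in healthy_VCV, and both overlapped control_blank. Nfkbiz had 1028, 1011 and 1219 in healthy_noisy, all above control_blank, and 447, 839.9, 795 and 994 in healthy_VCV, which overlapped it. Nfkb2 had 2829, 2199.7 and 1704 in healthy_noisy and 1645, 1909, 2672 and 2464 in healthy_VCV, and both overlapped control_blank. Their adjusted p ran between 0.0556 and 0.341, and several passed in other fits: 5 members were called in healthy_noisy when the fit held only the groups compared or after quantile normalization, and 5 in healthy_VCV with the groups compared only or with DESeq2. Leaving out 1 library added Nfkbia (without control_blank 016, adjusted p = 0.0329) and Nfkbiz (without control_blank 074, adjusted p = 0.0477) in healthy_noisy, and Birc3 (without healthy_VCV 057, adjusted p = 0.0459) and Zc3h12a (without healthy_VCV 025, adjusted p = 0.0362) in healthy_VCV. The neutrophil markers summed to 25332 to 33852 in healthy_noisy and 20556 to 32607 in healthy_VCV, against 3601 to 3802 in control_blank. Of all genes, 14.6% fell in healthy_noisy and 28.1% in healthy_VCV. Club cell markers fell in 3 of 4 in healthy_noisy and 2 of 4 in healthy_VCV, and cardiac muscle markers in 6 of 6 and 3 of 6. Their part in the result was not tested.

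After chronic injury no member was called in unventilated lungs against control_blank, and ventilation came with higher levels of part of the members. In control_chronic against control_blank, limma called 0 of 8 members, where 9.3% of all genes were called higher and 5.55% lower. That background rests on few libraries: the 14.9% of genes called in either direction was 1.37% without control_blank library 016, 4.73% with the 2 shallowest control_chronic libraries left out, and 5.9% in a fit of these groups alone. Only Nfkb1 had an unadjusted p under 0.05, and edgeR and DESeq2 also called 0. Nfkb1 had 2135, 2256, 2083.5, 2093 and 2441 in control_chronic, all above the 1215 to 1687 of control_blank, and it was the 1 member of 8 whose groups lay apart (8.64% of all genes lay wholly higher). Its change was 0.56 ± 0.22 (limma, adjusted p = 0.087), and a fit of these groups alone called it (adjusted p = 0.0388). The other 7 had log2 changes between -0.10 and 0.34.

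Under variable tidal volumes, 3 of 8 members rose in chronic_noisy against control_chronic, Bcl3, Rel and Birc3, where 19.1% of all genes did. Under constant ones, 5 of 8 rose in chronic_VCV against control_chronic, Nfkbiz, Bcl3, Nfkb2, Birc3 and Zc3h12a, where 6.89% of all genes did. Members lying wholly above control_chronic numbered 5 in chronic_noisy (22.4% of all genes) and 4 in chronic_VCV (10.3%). The control_chronic libraries are shared by both comparisons and belong to a number series of their own.

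Bcl3 had 1044, 619 and 1257 in chronic_noisy and 3181, 505 and 1172 in chronic_VCV, against 289, 299, 299, 286 and 336 in control_chronic. The controls lay within a narrow band and every ventilated library was above it, with a wide spread in chronic_VCV. The change was 1.63 ± 0.43 (limma, adjusted p = 0.00614) in chronic_noisy and 2.03 ± 0.43 (adjusted p = 0.00346) in chronic_VCV. Rel had 209, 193 and 251 in chronic_noisy and 277, 142 and 158 in chronic_VCV, against 139.8, 107, 99.3, 70.7 and 103.9 in control_chronic. All ventilated libraries were above the controls, by only a little for the lower ones of chronic_VCV. Rel's change was 1.08 ± 0.30 (limma, adjusted p = 0.00812) in chronic_noisy, lost without chronic_noisy library 084 (0.97, adjusted p = 0.053), and 0.85 ± 0.30 (adjusted p = 0.0595) in chronic_VCV, gained without library control_chronic_113 (0.96, adjusted p = 0.0469).

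Birc3 had 745, 416 and 1047 in chronic_noisy and 1584, 342 and 862 in chronic_VCV, against 349.5, 272, 248, 299 and 242 in control_chronic. Library 069 of chronic_VCV fell inside the control range and the chronic_noisy libraries were all above it. Its change was 1.29 ± 0.48 (limma, adjusted p = 0.0391) in chronic_noisy and 1.47 ± 0.48 (adjusted p = 0.043) in chronic_VCV. The chronic_noisy call was lost without chronic_noisy 075 or 084 or control_chronic_114, control_chronic_115, control_chronic_116 or control_chronic_117 (adjusted p between 0.0562 and 0.199). The chronic_VCV call was lost without chronic_VCV 067 or 073 or any single control_chronic library (adjusted p between 0.0513 and 0.228).

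Zc3h12a had 748, 470.4 and 695 in chronic_noisy and 1563, 507 and 899.7 in chronic_VCV, against 353, 456, 396, 506 and 378 in control_chronic. Chronic_VCV lay above the controls by a margin of less than 1 unit at its lowest library, and chronic_noisy overlapped them. The change was 0.59 ± 0.30 (limma, adjusted p = 0.123) in chronic_noisy and 1.11 ± 0.30 (adjusted p = 0.0161) in chronic_VCV, this chronic_VCV call being lost without chronic_VCV 067 or 073 (adjusted p of 0.128 and 0.0508). Nfkbiz had 931, 545 and 836 in chronic_noisy and 2513, 798 and 885 in chronic_VCV, against 496, 577, 479, 849.6 and 520.5 in control_chronic. Library control_chronic_116 reached into both ventilated groups. The Nfkbiz change was 0.40 ± 0.34 (limma, adjusted p = 0.367) in chronic_noisy and 1.08 ± 0.34 (adjusted p = 0.0336) in chronic_VCV, lost without chronic_VCV 067 or control_chronic_113, control_chronic_115 or control_chronic_117 (adjusted p between 0.0547 and 0.261). Nfkb2 had 2206, 1774 and 2778 in chronic_noisy and 4800.4, 1588 and 3199 in chronic_VCV, against 1417, 1299, 1365, 1416 and 1568 in control_chronic. No library of the groups overlapped, and chronic_VCV library 069 was just above the controls. Its change was 0.65 ± 0.34 (limma, adjusted p = 0.129) in chronic_noisy and 1.04 ± 0.34 (adjusted p = 0.0393) in chronic_VCV, lost without chronic_VCV 067 or 073 or control_chronic_113, control_chronic_114, control_chronic_115 or control_chronic_116 (adjusted p between 0.0595 and 0.215).

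Neither Nfkbia nor Nfkb1 was called by limma after chronic injury. Nfkbia had 9219, 4419 and 7721 in chronic_noisy and 14067, 7417 and 6484 in chronic_VCV, against 4134, 4372, 6708, 10459 and 5025 in control_chronic, with overlap in both. Nfkb1 had 2666, 2737 and 4336 in chronic_noisy and 2376, 2538 and 2836 in chronic_VCV, against 2083.5 to 2441 in control_chronic, and only chronic_noisy lay wholly above. Its change was 0.53 ± 0.22 (limma, adjusted p = 0.0646) in chronic_noisy and 0.23 ± 0.22 (adjusted p = 0.516) in chronic_VCV.

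Of the 5 chronic_VCV calls, 4 were lost without library 067, and each of these was also lost on leaving out some other single library. Library 067 was the highest of its group for 7 of 8 members and the lowest for Nfkb1. Without it, 1 member was called in place of 5, Bcl3, and the changes of the other 4 were 0.95 for Birc3, 0.70 for Zc3h12a, 0.68 for Nfkb2 and 0.56 for Nfkbiz. Leaving out the 2 control_chronic libraries of lowest depth, a choice made after the values were seen, left Bcl3 as the 1 call of chronic_VCV too, but with the changes of the other 4 about as large, at 1.56 for Birc3, 1.08 for Zc3h12a, 1.02 for Nfkbiz and 1.00 for Nfkb2 (adjusted p between 0.0547 and 0.108). Without chronic_noisy library 084, 1 member was called in chronic_noisy in place of 3. The neutrophil markers summed to 17590 to 32528 in chronic_noisy and 9661 to 26411 in chronic_VCV, with library 067 the highest of its group, against 1685 to 3466 in control_chronic. Of all genes, 19.1% rose and 18.1% fell in chronic_noisy, and 6.89% rose and 7.9% fell in chronic_VCV. Club cell markers fell in 2 of 4 in chronic_noisy and 3 of 4 in chronic_VCV, alveolar type 1 markers in 3 of 6 and 2 of 6, and cardiac muscle markers rose in 3 of 6 and fell in 1 of 6. Their part in the result was not tested.

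**Figure D3:**
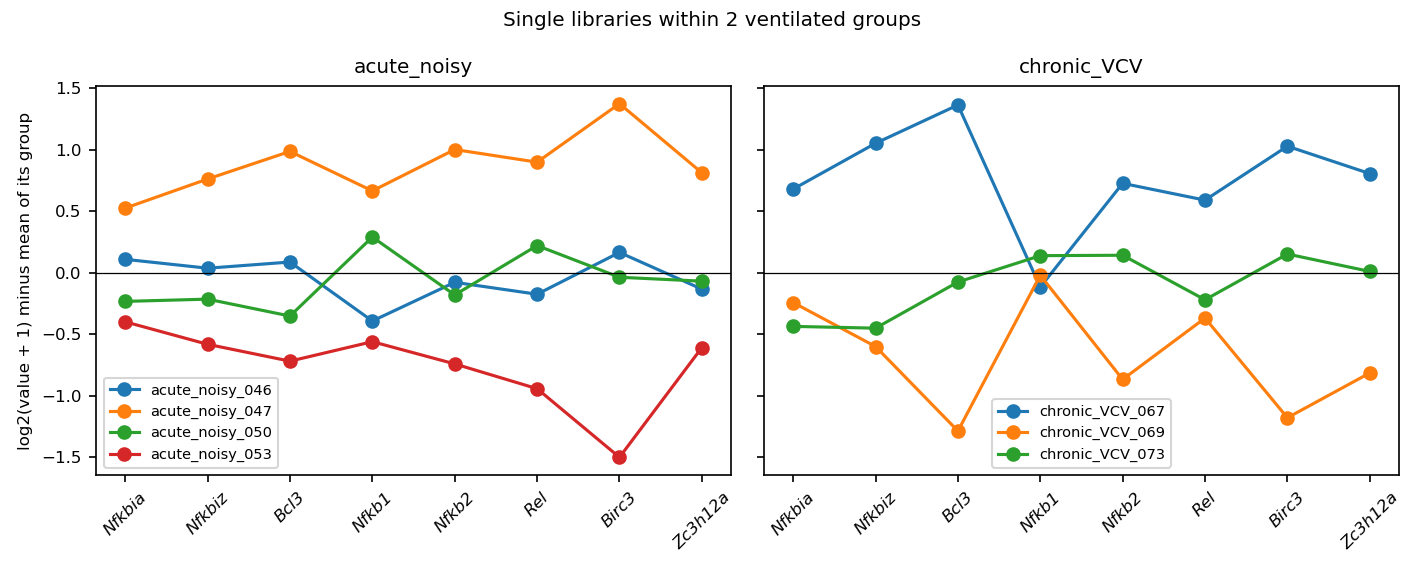
Log2(value + 1) of each member minus the mean of its group (y axis) for the 4 acute_noisy libraries and the 3 chronic_VCV libraries, with lines joining the values of 1 library. Library 047 is the highest acute_noisy library for 8 of 8 members and 053 the lowest for 8 of 8, and chronic_VCV library 067 is the highest for 7 of 8.

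Set against ventilated lungs without earlier injury, acute injury came with higher Bcl3, Nfkb2, Birc3 and Zc3h12a in both modes in the fit over all libraries. The constant-volume comparison lies wholly across number series, and in the variable-volume one no member was called once the series was taken into account. In acute_VCV against healthy_VCV these 4 of 8 members rose, where 26.1% of all genes did, and their groups did not overlap (4 of 8 members, 29.6% of all genes). The log2 changes were 1.86 ± 0.45 for Bcl3 (limma, adjusted p = 0.0015), 1.47 ± 0.32 for Zc3h12a (adjusted p = 0.000464), 1.44 ± 0.51 for Birc3 (adjusted p = 0.0202) and 0.95 ± 0.35 for Nfkb2 (adjusted p = 0.0258). Nfkb2 and Birc3 lost the call without acute_VCV library 049 (adjusted p of 0.232 and 0.16), and each also without healthy_VCV library 025 or 057 (adjusted p between 0.0501 and 0.073). Without acute_VCV library 040, Nfkbiz was also called (1.03, adjusted p = 0.0326). Rel stood out by its sign, with 117.2, 108 and 209.8 in acute_VCV, against 215, 196, 203 and 236 in healthy_VCV. The groups overlapped by library 049 alone, and the change of -0.61 ± 0.32 was not called (limma, adjusted p = 0.108) except without that library (-0.91, adjusted p = 0.0321) or in a fit of these groups alone (adjusted p = 0.0465). These groups belong to different number series (12 against 14 and 15), so series and group cannot be told apart.

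In acute_noisy against healthy_noisy 6 of 8 members rose, all but Nfkbia and Nfkbiz, where 12.9% of all genes did, and 4 of 8 did not overlap (11.5% of all genes). The changes of the 6 were 1.59 ± 0.51 for Birc3, 1.24 ± 0.45 for Bcl3, 1.22 ± 0.32 for Zc3h12a, 1.09 ± 0.32 for Rel, 0.97 ± 0.35 for Nfkb2 and 0.86 ± 0.23 for Nfkb1 (limma, adjusted p between 0.00835 and 0.0447). These calls were lost, with part of the size of the changes kept, where the number series was taken into account. All healthy_noisy libraries are of series 15, as are acute_noisy 046 and 053, and a fit of series 15 alone called 0 of 8. The series as a covariate also called 0 of 8, with changes of 1.29 for Birc3, 1.17 for Bcl3, 1.14 for Zc3h12a, 0.82 for Rel, 0.79 for Nfkb2 and 0.60 for Nfkb1 (adjusted p between 0.0619 and 0.235). A fit of these groups alone called 0 of 8 with the same changes as the full fit and adjusted p between 0.118 and 0.162 for these 6. With only the series 15 libraries of acute_noisy in the full fit, 0 were called, and with only those of series 14, 047 and 050, 7 were. Within series 15 the changes were 0.93 for Bcl3, 0.92 for Birc3, 0.85 for Zc3h12a, 0.56 for Nfkb2, 0.53 for Rel and 0.38 for Nfkb1, with adjusted p between 0.226 and 0.628. Without acute_noisy library 047 or without healthy_noisy library 061, 1 member was called, Zc3h12a in both cases. Without acute_noisy 050, 2 were called, and without healthy_noisy 078, 3.

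For the mode of ventilation, variable against constant tidal volume, 1 member was called in 1 injury state. In that state, acutely injured lungs, the share of members called (12.5%) was near that of all genes. In acute_noisy against acute_VCV, Rel rose by 0.91 ± 0.32 (limma, adjusted p = 0.0386), the 1 of 8 members called, where 11.9% of all genes were called higher. Its libraries overlapped, with 232, 489, 305 and 136 in acute_noisy, against 117.2, 108 and 209.8 in acute_VCV. The call was lost without acute_noisy 047 (0.61, adjusted p = 0.148) or 050 (0.84, adjusted p = 0.0944) and without acute_VCV 040 (0.79, adjusted p = 0.166) or 045 (0.74, adjusted p = 0.145). It was 1.47 (adjusted p = 0.00175) with the series 14 libraries of acute_noisy and 0.35 (adjusted p = 0.475) with those of series 15, and no acute_VCV library shares a series with either, so no value within a series can be had. A fit of these groups alone (adjusted p = 0.215) and quantile normalization (adjusted p = 0.057) did not call it, whereas edgeR (adjusted p = 0.0198) and DESeq2 (adjusted p = 0.00954) did. Without acute_noisy 053, Nfkbiz was called besides Rel (0.96, adjusted p = 0.049).

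In uninjured lungs the mode gave 0 of 8 calls by limma, where 4.31% of all genes were called higher and 6.01% lower, and edgeR and DESeq2 also gave 0. At an unadjusted p under 0.05 there was 1, Rel. Rel was 127, 121 and 119.7 in healthy_noisy, against 215, 196, 203 and 236 in healthy_VCV, a change of -0.79 ± 0.32 (adjusted p = 0.0909). The groups lay well apart. Nfkb1, at 2373, 2083.9 and 2352 in healthy_noisy, against 2694, 2529, 3397 and 3031 in healthy_VCV, also lay wholly lower (2 of 8 members did, against 20.2% of all genes), with a change of -0.35 ± 0.23 (adjusted p = 0.298). Nfkbia and Nfkbiz lay wholly higher in healthy_noisy (2 of 8 members, against 16.4% of all genes), with changes of 0.52 ± 0.35 (adjusted p = 0.318) and 0.55 ± 0.35 (adjusted p = 0.287). With the series as a covariate, Rel's change was -0.38 (adjusted p = 0.701) and that of Nfkb1 0.03 (adjusted p = 0.975), and within series 15, where healthy_VCV has 1 library, they were -0.94 (adjusted p = 0.404) and -0.42 (adjusted p = 0.46). A fit of these groups alone called 2 members, Rel (adjusted p = 0.00539) and Nfkbia (adjusted p = 0.0274).

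In the fit over all libraries, the effect of mode on Rel differed between acutely injured and uninjured lungs. The difference, acute minus healthy, was 1.70 ± 0.45 on the log2 scale (limma, adjusted p = 0.00495). Rel was the 1 of 8 members called (12.5%), a share below the 19.6% of all genes called higher. A further 19.4% of all genes were called lower. It stayed past the threshold when any 1 of the 14 libraries was left out (1.40 to 2.02) and with the series 15 libraries of acute_noisy alone (1.14, adjusted p = 0.0409). Nfkb1 had 0.69 ± 0.33 (adjusted p = 0.0995) and was called without acute_VCV 049 (0.93, adjusted p = 0.0286), without acute_noisy 053 (0.87, adjusted p = 0.0254) and with the series 14 libraries of acute_noisy alone (1.16, adjusted p = 0.00208). Of the 4 groups, acute_VCV is of series 12 and the others are of series 14, 15 or both, so the part of the series in this difference cannot be told apart from the groups. In uninjured lungs macrophage markers summed to 5181 to 6692 in healthy_noisy, against 7021 to 9835 in healthy_VCV, and 0 of 6 were called between these groups. Markers of cardiac muscle summed to 328 to 1359 in healthy_noisy, against 1739 to 9106 in healthy_VCV, and 3 of 6 fell, where 6.01% of all genes did. These sums also went with the number series. The 1739 is of the only healthy_VCV library of series 15, the series of all healthy_noisy libraries, and those of series 14 had 6290 to 9106. In acutely injured lungs 11.9% of all genes rose and 12.3% fell in acute_noisy against acute_VCV. Macrophage markers there summed to 5305 to 10146 in acute_noisy, against 5630.0 to 7576 in acute_VCV, with 2 of 6 higher. Cardiac muscle markers summed to 231 to 8337 in acute_noisy, against 6061 to 14886 in acute_VCV, with 6 of 6 lower. Within acute_noisy the sums were 8337 and 2378 in series 14 and 231 and 418 in series 15. The part of these markers in the result was not tested.

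After chronic injury the mode gave 0 of 8 calls in chronic_noisy against chronic_VCV (limma), with 0 at an unadjusted p under 0.05 and 0 by edgeR and DESeq2, where 0.563% of all genes were called higher and 1.86% lower. All 8 members overlapped between these groups, and the log2 changes ran from -0.69 for Nfkbiz (95% interval -1.47 to 0.09) to 0.30 for Nfkb1 (-0.22 to 0.81). The intervals reach falls of more than 1 log2 unit in 6 of the 8 members. All chronic_noisy libraries are of series 14 and all chronic_VCV libraries of series 15. With the series as a covariate, Nfkb1 had -0.21 in place of 0.30 and Rel -0.32 in place of 0.23, so that all 8 changes were below 0, with 0 called (adjusted p between 0.624 and 0.851). The difference of the mode effect between chronic injury and no injury had 0 calls (15.7% of all genes higher, 14% lower), with 3 at an unadjusted p under 0.05, Nfkbiz, Rel and Zc3h12a, with 0 by edgeR and 1, Nfkbiz, by DESeq2. Nfkbiz, at -1.24 ± 0.52 (limma, adjusted p = 0.0708), was called without chronic_VCV 069 or 073 (adjusted p of 0.0315 and 0.0476), and Zc3h12a, at -0.98 ± 0.46 (adjusted p = 0.108), without 069 (adjusted p = 0.02). With the series as a covariate no member was called for this difference of the mode effect. The healthy groups differ in series too, healthy_noisy being of series 15 and healthy_VCV of series 14 and 15. The effect of ventilation itself did not give a called difference between chronic injury and no injury for any member in either mode, by limma, edgeR or DESeq2. The 95% intervals were wide, for Birc3 -1.08 to 1.81 with constant tidal volumes and -1.44 to 1.56 with variable ones. A fit of the groups compared only called 1 member for constant volumes. Neither unventilated group shares a number series with a ventilated one here, so series and group cannot be told apart. For constant tidal volumes 9.92% of all genes were called higher and 14% lower, and 1 member, Nfkb1 at -0.73 ± 0.32 (adjusted p = 0.0981), had an unadjusted p under 0.05. For variable ones the shares were 0.966% and 1.69%, and 0 members had one.

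Ordered by group mean, every member had its highest mean in acute_noisy except Bcl3, which was highest in acute_VCV, and its lowest in control_blank or control_chronic. Neighbours in that order rarely lay apart. For Nfkbia, Nfkb2, Rel and Zc3h12a all 7 steps between neighbouring groups had overlapping ranges. Nfkbiz, Bcl3 and Birc3 each had 1 step without overlap, for Nfkbiz between healthy_noisy and chronic_noisy, for Bcl3 between healthy_VCV and control_blank and for Birc3 between healthy_VCV and control_chronic. Nfkb1 had 2 such steps, between control_chronic and control_blank and between chronic_VCV and healthy_noisy.

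Members moved together across libraries to unequal degrees. Over the 28 libraries, which share the groups and so their differences, Pearson's r between the log2 values of 2 members ran from 0.41 for Nfkbia with Rel to 0.96 for Nfkb2 with Birc3. After each group's mean was taken out, r ran from 0.13 for Nfkbia with Nfkb1 to 0.91 for Bcl3 with Zc3h12a. The acute_noisy libraries show this plainly. Library 047 was the highest of its group for 8 of 8 members and 053 the lowest for 8 of 8. Taking out group means does not take out the number series, and 047 is of series 14 and 053 of series 15. The neutrophil marker sums of 047 and 053 were 96543 and 23453, the highest and the lowest of acute_noisy. In acute_VCV, library 049 was the highest for 7 of 8 members, Nfkbia being the exception, and had the highest neutrophil sum, 118108. The order of the others was less clear. Library 040, with a sum of 30377, was the lowest for 5 of 8 members, and 045, with 79175, for 3.

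The genes whose pattern over the 28 libraries was most like each member's were chosen by Pearson's r among 9591 genes. For Bcl3 and Zc3h12a this was Sbno2, at 0.97 for each, followed by Gmip for Bcl3 and by Tnf, the cytokine tumour necrosis factor, for Zc3h12a (0.95). Nfkbiz was most like Tnf (0.90) and Map3k8, a kinase of the inflammatory response (0.89). Nfkbia was most like Zfp36, which encodes a protein that destabilises cytokine messenger RNAs (0.89), and Gadd45a (0.84). Nfkb1 was most like Ets2 (0.96), Nfkb2 like Rhbdf2 (0.94), Rel like Kcnj2 (0.93) and Birc3 like Ptpn1 (0.95). These r values describe libraries that share groups and depth and carry no test.

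Other genes of the pathway were called higher in a larger share than all genes after acute injury. The list used here and that of target genes below were chosen with earlier results of these data known. Of 50 listed genes of the pathway that are no members, 38 were found. Of these, 27 rose and 6 fell in acute_noisy against control_blank, a share of 71.1% higher beside 31.3% of all genes. In acute_VCV 20 rose and 1 fell, a share of 52.6% higher beside 20.6%. Rela, the main activating subunit, averaged 3639 ± 643 in acute_noisy (SD, n = 4) and 4031 ± 391 in acute_VCV (SD, n = 3), against 2113 ± 308 in control_blank (SD, n = 3). Its log2 change was 0.78 ± 0.14 (limma, adjusted p = 6.88e-05) in acute_noisy and 0.94 ± 0.15 (adjusted p = 5.59e-05) in acute_VCV. The further inhibitors Nfkbie, Nfkbib and Nfkbid rose in both groups, by 1.71, 1.15 and 1.68 in acute_noisy and by 1.33, 1.30 and 1.27 in acute_VCV (log2, adjusted p between 4.48e-05 and 0.0152). Malt1, a protease of the signalling complex downstream of antigen receptors, rose by 2.13 in acute_noisy and 2.14 in acute_VCV. Zc3h12c, of the family of Zc3h12a, rose by 2.86 in acute_noisy (adjusted p = 4.97e-06) and had 1.05 in acute_VCV (adjusted p = 0.0554). Commd1, a protein that promotes the degradation of Rela, fell in both, with log2 changes of -1.12 in acute_noisy and -0.66 in acute_VCV.

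In uninjured lungs 13 of the 38 rose and 1 fell in healthy_noisy against control_blank (34.2% higher, beside 17.5% of all genes), and 17 rose and 4 fell in healthy_VCV (44.7%, beside 29.3%). After chronic injury 11 rose and 4 fell in chronic_noisy against control_chronic (28.9%, beside 19.1%), and 7 rose and 1 fell in chronic_VCV (18.4%, beside 6.89%). In control_chronic against control_blank 2 rose, Traf6 and Otud7b, and 1 fell, Rbck1, and the 5.26% higher was below the 9.3% of all genes. The difference of the mode effect, acute minus healthy, was called higher for 8 of the 38 and lower for 10. The 21.1% higher was near the 19.6% of all genes, and 19.4% of all genes were called lower. In acute_noisy against acute_VCV 5 rose and 3 fell, where 11.9% of all genes rose and 12.3% fell. In healthy_noisy against healthy_VCV 2 rose and 4 fell, where 4.31% and 6.01% of all genes did. Acute_VCV shares no number series with the other groups, so series and group cannot be told apart. Zc3h12c, Itch, Traf6 and Ikbkg were the 4 called with opposite signs in the injured and the uninjured lungs, and they were picked for those signs. They rose in acute_noisy against acute_VCV, by 1.81, 1.00, 0.90 and 0.72, and fell in healthy_noisy against healthy_VCV, with log2 changes of -1.39, -0.97, -0.85 and -1.04. Itch encodes a ubiquitin ligase, Traf6 an adaptor and ubiquitin ligase, and Ikbkg the regulatory subunit of the kinase that marks the inhibitors for degradation.

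Known target genes of NF-kB had a larger median change than the members after acute injury. Of 28 listed, 25 were found, and 19 rose and 1 fell in acute_noisy against control_blank (76% higher, beside 31.3% of all genes), with a median log2 change of 3.02, and 17 rose in acute_VCV (68%, beside 20.6%), with a median of 2.62. Il6, the cytokine interleukin 6, averaged 622 ± 646 in acute_noisy (SD, n = 4) and 491 ± 278 in acute_VCV (SD, n = 3), against 2.63 ± 1.61 in control_blank (SD, n = 3). Its changes were 6.65 ± 1.19 (limma, adjusted p = 6.88e-05) in acute_noisy and 7.02 ± 1.28 (adjusted p = 0.000199) in acute_VCV. The control_blank values of Il6 lie near the floor, so the size of these changes depends on the 1 added before the log. Lcn2, a neutrophil granule protein also made by epithelium, rose by 5.40 in acute_noisy and 6.64 in acute_VCV, and Ptx3, a pattern-recognition protein, by 5.70 and 5.84. In uninjured lungs 7 rose and 3 fell in healthy_noisy (28% higher, beside 17.5% of all genes). In healthy_VCV 6 rose and 3 fell, and the 24% higher was below the 29.3% of all genes. Of the 7 genes called in both, Nos2, Il1b and Tlr2 were among those higher in both, and the chemokine Ccl20 and the adhesion molecule Icam1 were lower in both. After chronic injury 6 rose and 2 fell in chronic_noisy (24% higher, beside 19.1% of all genes) and 7 rose and 1 fell in chronic_VCV (28%, beside 6.89%) against control_chronic, with Nos2, Selp and Il1b higher in both and Ccl20 lower in both.

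**Figure D4:**
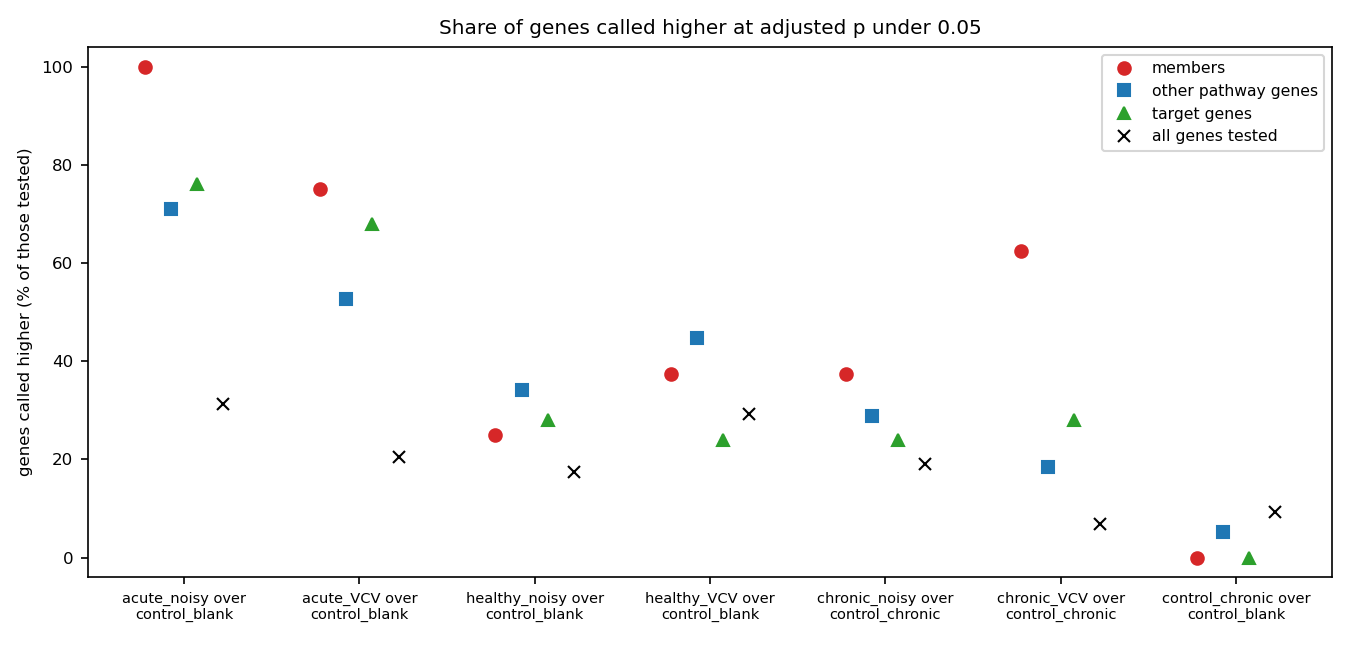
Share of genes called higher at adjusted p under 0.05 (y axis, percent of those tested) among the 8 members, the 38 other pathway genes, the 25 target genes and all 14908 genes, for the 6 ventilated groups and control_chronic over the unventilated group named below each. In acute_noisy 100% of members and 31.3% of all genes were called higher, in chronic_VCV 62.5% and 6.89%, and in control_chronic 0% and 9.3%.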

How the data were processed

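The members and the gene lists were chosen with earlier results of these data known. Libraries were stranded (dUTP method), from poly(A) RNA, sequenced on an Illumina instrument, per the labels' protocols. The submitters' processing notes list CASAVA 1.8.0, BWA, bedtools 2.11, DESeq 1.8.3 and build rn4, without role or order, and the genes are of Ensembl version 67, per the file headers. How strand was used in counting is not given in the sources used here.

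The deposited table is a signal, read counts that the authors divided by 1 factor per library. In each library 100.0% of values were whole multiples of 1 step within 0.1 read, so whole reads were recovered. No pair of replicates held identical values, and chi-square per gene between replicates was at least 16.3. All value columns were used. Genes with a mean value of at least 10 over the 28 libraries (14908 of 17002) were fitted with limma 3.58.1 in R 4.3.3 as log2(value + 1), with 8 group means, a trend of the variance on the level and robust shrinkage. Tests were two-sided and adjusted by the Benjamini-Hochberg method over all genes within each of 16 comparisons. On the recovered reads edgeR 4.0.16 called 4831 genes in healthy_noisy against control_blank, where limma called 4791, and DESeq2 1.42.0 was run likewise. Further alternatives were a pseudocount of 10, no filter, quantile normalization, fits of the groups compared only, the number series as a covariate or alone, and leaving out single libraries. Scripts were tested on simulated data.

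Named genes were the members in every comparison, with genes from fixed lists of 50 other pathway genes and 28 target genes, of which at most 6 a comparison with the largest called changes were eligible, Rela and its inhibitors being named by role. Likeness was Pearson's r over the libraries among 9591 named genes with a mean value of at least 50. Promoters come from RefSeq (GRCr8) by symbol, and Birc3 had no entry. No coordinates of the authors' build are given.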

Additional observations from a re-analysis of the deposited data

Results flagged for a closer look

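Among the 24 sets of values tested for a library standing apart (8 members in the groups of 4 or 5 libraries), 2 held one, and chance alone gives about 1 in 20 such sets. Nfkbiz was 849.56 in library control_chronic_116, against 479 to 577 in the other libraries of that group. Bcl3 was 336.27 in library control_chronic_117, against 286 to 299 in the others, a group whose Bcl3 values otherwise lay within a narrow band. The effect of variable against constant tidal volumes on Rel differed between acutely injured and uninjured lungs by 1.7028 on the log2 scale (limma, adjusted p = 0.00495), with Rel higher in acute_noisy than in acute_VCV and its healthy_noisy values all below those of healthy_VCV. Of all genes, 19.6% were called higher and 19.4% lower for this difference. Acute_VCV shares no number series with the other groups in it.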

How the results depend on the processing

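Counts are members called of 8. No paired analysis was possible because no replicate number occurs in more than 1 group. A fit of the groups compared only gave 5 in place of 2 for healthy_noisy and 5 in place of 3 for healthy_VCV against control_blank, 6 in place of 3 for chronic_noisy against control_chronic, 1 in place of 0 for control_chronic against control_blank, 0 in place of 6 for acute_noisy against healthy_noisy, 0 in place of 1 for acute_noisy against acute_VCV, 2 in place of 0 for healthy_noisy against healthy_VCV, 2 in place of 0 for the difference of the mode effect between chronic injury and no injury, and 1 in place of 0 for the difference of the VCV effect. Quantile normalization gave 5 in healthy_noisy against control_blank, 0 in acute_noisy against acute_VCV and 1 for the mode difference with chronic injury. DESeq2 gave 5 in healthy_VCV against control_blank and 1 for that mode difference. The number series as a covariate, or series 15 alone, gave 0 in acute_noisy against healthy_noisy. Of the alternatives chosen after seeing the data, series 14 libraries of acute_noisy alone gave 2 against acute_VCV and 2 for the mode difference with acute injury, series 15 alone gave 0 against acute_VCV and 0 against healthy_noisy, and leaving out the 2 shallowest control_chronic libraries gave 1 in chronic_VCV. The cause was not tested. Leaving out 1 library gave 5 to 7 in acute_VCV, 7 to 8 in acute_noisy, 2 to 4 in healthy_VCV and 0 to 3 in healthy_noisy against control_blank, 1 to 5 in chronic_VCV and 1 to 3 in chronic_noisy against control_chronic, 0 to 0 in control_chronic against control_blank, 2 to 5 in acute_VCV against healthy_VCV, 1 to 7 in acute_noisy against healthy_noisy, 0 to 2 in acute_noisy against acute_VCV, 0 to 0 in healthy_noisy against healthy_VCV and in chronic_noisy against chronic_VCV, 1 to 2 and 0 to 2 for the mode differences with acute and chronic injury, and 0 to 0 for the remaining differences. Where that left 2 libraries in a group, the spread was taken from all groups. No member reversed its direction where called under any alternative, and pseudocount 10, no filter and edgeR kept every count within 1.5 times. Over all genes, edgeR moved the share of calls that were higher to 42.1% (limma 54.5%) in healthy_noisy against control_blank, 38.4% (62.6%) in control_chronic against control_blank, 63.6% (48.2%) in acute_noisy against healthy_noisy, and 53.3% (41.5%) and 53.5% (36.4%) for the differences of the VCV and noisy effects. Quantile normalization moved the median log2 change of all genes from -0.03 to -0.13 in healthy_VCV against control_blank.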

Other observations

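Lymphocyte markers, which the comparisons above do not use, were lower in several ventilated groups. Of 8 B and plasma cell markers found, 7 fell in acute_noisy (28.4% of all genes did), 1 in acute_VCV (16.7%), 5 in healthy_noisy (14.6%) and 5 in healthy_VCV (28.1%) against control_blank. Against control_chronic, 4 fell in chronic_noisy (18.1% of all genes) and 5 in chronic_VCV (7.9%). Their sum was 924 to 2109 in acute_noisy, 824 to 1252 in healthy_noisy and 807 to 2387 in healthy_VCV, against 2744 to 3714 in control_blank. Of 10 T and NK cell markers, 5 fell in acute_noisy, 0 in acute_VCV and 7 in healthy_noisy against control_blank. In healthy_VCV 3 fell and 1 rose, a share of falls near that of all genes. Against control_chronic, 0 fell in chronic_noisy and 3 in chronic_VCV.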
